A study of Procambarus clarkii with 12 samples.

Results

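The gene clusters described here were those with the largest shares of the RNA reads of this organ in male *Procambarus clarkii*, the red swamp crayfish. A gene cluster is a group of similar assembled transcript sequences under 1 identifier. Clusters were chosen by their mean level: CPM, a cluster's estimated count per 1000000 counts of its library, was averaged over all 12 libraries, and the 137 clusters with a mean of 1000 CPM or more were taken, of 176325 listed. They are 0.0777% of the listed clusters. The mean uses the values of every group, so a cluster can enter through the group where it is high. For 25 of the 137 the mean over the other 9 libraries was under 1000 CPM when 1 group was set aside: 9 without the controls, and 4, 8 and 5 without the 2, 5 and 10 mg/L group. Tests between groups are not independent of the choice for these, and all values of abundance are a description. The 12 libraries were 3 controls kept at 0 mg/L cadmium and 3 each from animals held at 2, 5 or 10 mg/L cadmium, all for 72 h, and all were whole hepatopancreas of male animals. The labels give no age, no cadmium compound, and do not say whether animals were pooled, and the p-values below therefore cover only the spread among the libraries, which may be technical.

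The hepatopancreas of a crayfish is its digestive gland: it makes and releases digestive enzymes, takes up and stores nutrients, and is a main organ for binding and removing metals. In a gland of this kind a small set of transcripts can fill a large part of an RNA library, and every other transcript is then read as a share of what is left. Cadmium, a toxic heavy metal, is taken up by this organ.

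The deposited tables carry no gene names, and 0 of the identifiers were found in RefSeq's table of genes for assembly FALCON_Pclarkii_2.0. The tissue label could therefore not be checked against marker genes, and no function is given to any cluster. In bulk tissue, fewer cells of a type and less RNA per cell cannot be told apart. Library totals ran from 15835744 to 21653867 estimated counts, with the 2 and 10 mg/L libraries below every control and 5 mg/L library. At 1000 CPM counting error alone was 0.680% to 0.795% of the value, and it is larger for lower values. Libraries also stood apart from their groups. In summed share and on the first principal component of the set, 10 mg/L replicate 3 lay away from replicates 1 and 2. On the second component 2 mg/L replicate 1 lay away from replicates 2 and 3. Some clusters entered the set through these libraries, so the positions are not independent of the choice of clusters. The summed share, the edgeR counts and the median fold change are given with and without these libraries where they move.

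Just inside the threshold, Cluster-27942.66961 had a mean of 1016.87 CPM and Cluster-27942.66782 a mean of 1010.28 CPM. Just outside it, Cluster-27942.65478 had 997 CPM and Cluster-27942.122408 had 989 CPM. These 4 ranged over libraries from 768 to 1384, 630 to 1481, 277 to 1793 and 638 to 1777 CPM in that order, so the threshold falls inside the spread of the clusters beside it. Of the 137 clusters, 71 had a mean of 1000 to 2000 CPM, 44 of 2000 to 5000 CPM and 22 of 5000 CPM or more. In 20 of them the median library was under 1000 CPM, and 43 reached 1000 CPM in every library.

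The 137 clusters held 42.7% of all counts. In the controls their share was 43.4%, 47.2% and 44.1% of the library, and at 2 mg/L it was 39.8%, 43.7% and 45.8%. At 5 mg/L it was 45.3%, 42.3% and 42.5%. At 10 mg/L it was 34.1% and 34.7% in replicates 1 and 2 and 46.6% in replicate 3. The lowest shares of the series were thus those of 10 mg/L replicates 1 and 2, while replicate 3 had the next to highest share of all 12. The group means were 44.9% ± 2.03, 43.1% ± 3.05, 43.4% ± 1.68 and 38.5% ± 7.05 (SD, n = 3 each, from control to 10 mg/L). The difference of 10 mg/L from the controls was -6.45 percentage points, smaller than the SD of the 10 mg/L group. It was -10.5 points without 10 mg/L replicate 3, -4.26 without replicate 1 and -4.57 without replicate 2. On summed FPKM it was -4.05 points, and with a threshold of 2000 CPM it was -3.64 points. At 2 and 5 mg/L the differences were -1.83 and -1.55 points, within the spread between libraries, and leaving out each library in turn gave -3.18 to -0.174 and -2.52 to -0.395 points.

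**Figure D1:**
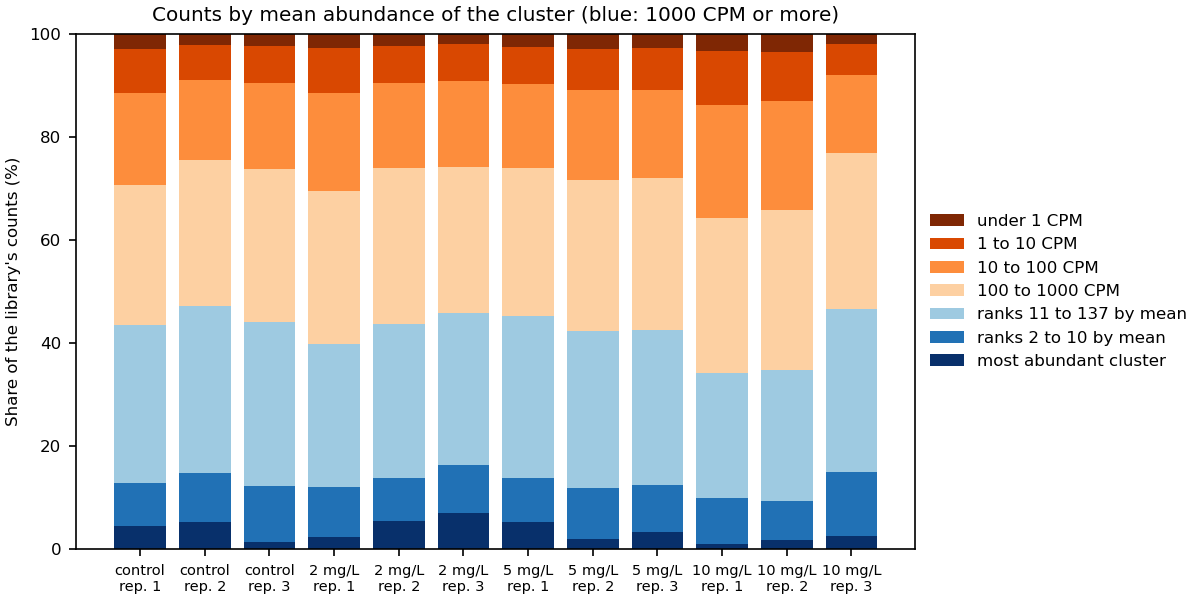
Share of each library's counts (vertical axis, percent) held by clusters of each class of mean abundance, with 1 stacked bar for each of the 12 libraries. The blue parts are the 137 clusters of 1000 CPM or more: they end at 34.1% and 34.7% in 10 mg/L replicates 1 and 2, and between 39.8% and 47.2% in the other libraries.

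What the abundant clusters lacked in 10 mg/L replicates 1 and 2 lay in clusters of low and middle abundance. Clusters with a mean of 10 to 100 CPM held 21.9% and 21.2% of those libraries and 15.2% of 10 mg/L replicate 3, against 15.5% to 17.9% in the controls. Clusters of 1 to 10 CPM held 10.4% and 9.58% there, 6.06% in 10 mg/L replicate 3, and 6.75%, 7.25% and 8.50% in the controls. The class of 100 to 1000 CPM had a narrower range, at 27.3% to 31.1% of every library. It held 30.2%, 31.1% and 30.2% of 10 mg/L replicates 1, 2 and 3, each above the 27.3%, 28.3% and 29.6% of the controls.

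Within the abundant set, the 71 clusters of 1000 to 2000 CPM took a smaller part of the 2 and 10 mg/L libraries than of any control. They held 10.3%, 11.2% and 12.1% of the control libraries. The 2 mg/L libraries had 9.46%, 8.37% and 8.36% in these clusters and the 10 mg/L libraries 7.52%, 8.54% and 9.08%, so that these groups did not overlap the controls. The class includes clusters that reached 1000 CPM only through the controls, Cluster-27942.66139 among them. In the whole set 9 clusters reached it only through the controls, and 4, 8 and 5 only through the 2, 5 and 10 mg/L groups. The choice of clusters can thus raise the share of any group, and its part in the difference was not tested. The same 6 libraries had the smallest totals, 15835744 to 17480371 counts against 19011151 or more, and the part of depth in this was not tested. At 5 mg/L the values were 11.2%, 10.3% and 9.93%, overlapping the controls. The 22 clusters of 5000 CPM or more held 20.04% ± 1.11 in the controls and 21.9% ± 2.68, 19.9% ± 1.21 and 17.8% ± 4.18 at 2, 5 and 10 mg/L (SD, n = 3 each), with groups that overlapped. No p is given for these sums, since the clusters were chosen with results of these data known.

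Lengths gave a different view of abundance, because a long sequence collects more reads at the same number of molecules. The length implied by the deposited count and FPKM (counts per kilobase of sequence, scaled to the library's reads) could be computed for 137 of 137 clusters, and its median was 944 bases with quartiles of 372 and 1844. The extremes were 45.1 and 14789 bases, and 25 clusters were under 300 bases. The files do not say whether this is the full or an effective length. The values of Cluster-27942.66445, Cluster-27942.95105 and Cluster-27942.65834 were 993.147, 769.148 and 691.148 bases. These are not whole numbers, as full lengths in bases would be, and they share nearly the same fraction. Implied lengths may thus be below the full ones, and the FPKM ranks of the shortest clusters are uncertain. Clusters of 10 to 100 CPM had a longer median, 1854 bases, and those of 100 to 1000 CPM a median of 1150 bases.

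On the per-length scale the 137 clusters held 17.5% to 26.0% of a library's summed FPKM, with 17.5% and 18.0% in 10 mg/L replicates 1 and 2. Ranked by mean FPKM, 43 of the 137 lay among the first 137 clusters and 4 among the first 10. The best placed of them was at rank 3 and the last at rank 1302. The set is therefore one of large read shares, and most of its clusters lie outside the first 137 on the per-length scale.

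All 137 clusters shared the first number of their identifier, 27942, which 75.9% of all clusters carry. The second number of those identifiers runs from 0 to 133822. The middle 69 of the 137 lay between 66067 and 66668, a range that holds 0.450% of the clusters with that first number and 31.6% of all counts. The other clusters of that range had a median of 8.88 CPM, against 0.176 CPM over all clusters with the first number. Abundant clusters thus sat close together in the numbering. Of their nonzero estimated counts 16.02% were whole numbers (within 1e-06), against 24.998% in clusters of 100 to 1000 CPM, 29.8% in those of 10 to 100 CPM and 67.4% in those under 1 CPM. Counts that are not whole arise where a method divides reads among similar sequences. A count can stop being whole once any of its reads is divided, so whole counts become rarer with more reads alone. The comparison between classes therefore does not measure how much their clusters share reads. The method used here is not given, so levels of clusters that may share reads are uncertain.

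Cluster-27942.66445 had the highest mean, 34764 CPM, or 3.48% of counts. It had 45498, 52495 and 14472 CPM in the controls and 22513, 54443 and 70613 CPM at 2 mg/L. It had 53234, 19644 and 32616 CPM at 5 mg/L and 8897, 17522 and 25219 CPM at 10 mg/L. Every group held libraries that differed at least 2-fold, and the 10 mg/L libraries overlapped the lowest control. Its log2 fold change at 10 mg/L against the controls was -1.10 with a standard error of 0.70 (edgeR quasi-likelihood test, adjusted p = 0.594). On the per-length scale it was at rank 5 by mean FPKM, at 34867 FPKM.

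Cluster-27942.95105 varied less, with 13376, 21131 and 21024 CPM in the controls and 17475, 17454 and 14905 CPM at 2 mg/L. It had 12434, 17774 and 15328 CPM at 5 mg/L and 22830, 17780 and 27637 CPM at 10 mg/L. The 10 mg/L libraries were among the higher ones and overlapped the controls, with a log2 fold change of 0.25 and a standard error of 0.35 (edgeR adjusted p = 0.899). These clusters changed places at the head of the libraries. Cluster-27942.66445 ranked first in 8 libraries: 2 of the 3 controls and all libraries at 2 and 5 mg/L. Cluster-27942.95105 ranked first in the other 4, control replicate 3 and all 3 libraries at 10 mg/L, where Cluster-27942.66445 ranked 7, 2 and 2.

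Cluster-27942.65834 had the next mean, 11991 CPM, and the smallest fold between its highest and lowest library. It stayed between 9455 and 15608 CPM over all 12 libraries, a range of 1.65-fold, and between ranks 2 and 7. Its group means were 12580 ± 2626, 12478 ± 2181, 11546 ± 1849 and 11361 ± 1687 CPM (SD, n = 3 each, from control to 10 mg/L). None of its log2 fold changes against the controls, -0.10, -0.22 and -0.20 with standard errors of 0.30, passed the test. The next smallest range was that of Cluster-27942.82599, rank 123 by mean, at 835 to 1437 CPM, or 1.72-fold. Its within-group coefficient of variation, 15.1%, was below the 17.5% of Cluster-27942.65834.

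The next clusters kept high ranks but shifted within them. Cluster-27942.83068, with a mean of 10237 CPM, had 6839, 9597 and 12804 CPM in the controls. The 10 mg/L libraries had 13224, 11620 and 17356 CPM, of which 1 lay among the controls. Its log2 fold change there was 0.49 with a standard error of 0.39 (edgeR adjusted p = 0.708). Cluster-27942.66229 had 5039 and 6531 CPM in 10 mg/L replicates 1 and 2 and 22916 CPM in replicate 3, its highest library, with 4808 to 12792 CPM in the other groups. Its rank ran from 2 to 24.

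Cluster-27942.66466 had 5775, 13157 and 8528 CPM in the controls, 16396, 14468 and 9869 CPM at 2 mg/L, and 6094, 5201 and 8009 CPM at 10 mg/L. All 10 mg/L libraries lay below all 2 mg/L libraries, and both groups overlapped the controls. It ranked between 3 and 9 at 2 and 5 mg/L and between 13 and 17 at 10 mg/L. Its implied length was 5752 bases, and it was at rank 366 by mean FPKM.

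Cluster-27942.66253 had 9147, 8234 and 13147 CPM in the controls and 8088, 4263 and 5092 CPM at 2 mg/L. The groups did not overlap, and the log2 fold change was -0.92 with a standard error of 0.37 (edgeR unadjusted p = 0.0317, adjusted p = 0.762). At 5 mg/L it had 8693, 13979 and 12007 CPM, again at the level of the controls. Cluster-27942.66096 showed a like order, with 9252, 11566 and 13489 CPM in the controls and 9253, 5949 and 5928 CPM at 2 mg/L, where its lowest control and highest treated library were nearly equal.

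**Figure D2:**
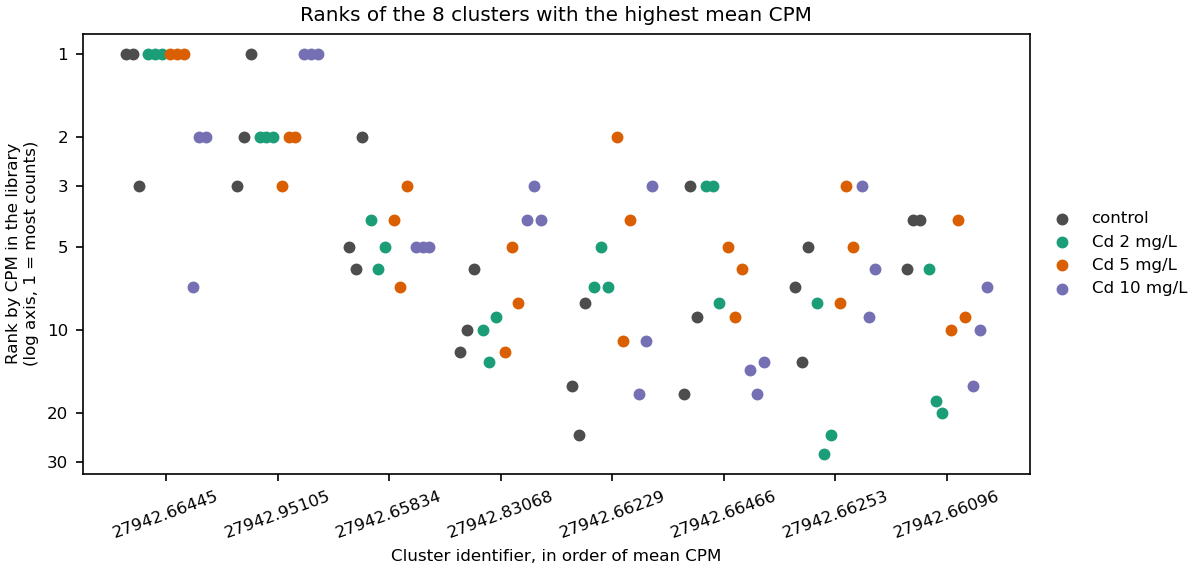
Rank by CPM (vertical axis, log scale, 1 at the top) in each of the 12 libraries for the 8 clusters with the highest mean CPM, 1 point per library, coloured by group. The first 3 stay between ranks 1 and 7, while the others reach ranks as low as 13 to 28.

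Across the whole set, ranks moved widely. An average of 106 of the 137 were among the first 137 clusters of a library, from 89 in 10 mg/L replicate 1 to 114 in control replicate 1. In each 5 mg/L library the number was 113. Only 44 were among the first 137 in every library, and 166 clusters outside the set entered the first 137 of at least 1 library. At the head, 27 clusters, all in the set, made up the first 10 of the 12 libraries, and 3 of the 10 with the highest means were among the first 10 in every one.

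The typical cluster of the set had its best library at rank 32 and its worst at rank 220 (medians). For 15 clusters the worst rank was beyond 1000, and for 9 beyond 10000. Ranked by group mean, 122 of the 137 were among the first 137 of the control group, with 113, 123 and 109 for the groups at 2, 5 and 10 mg/L. The median shift in rank from the control group was 17 places at 2 and at 5 mg/L and 29 places at 10 mg/L. These shifts share the same controls.

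The order of the 137 clusters was also compared between libraries by Spearman correlation of CPM, which uses only ranks within each library. The clusters were chosen on the mean of these same libraries, so the correlations are a description. Within groups it averaged 0.629 for the controls and 0.673, 0.636 and 0.635 for the 2, 5 and 10 mg/L groups, over 3 pairs each. Pairs of a control and a treated library averaged 0.548, 0.606 and 0.425 for the same doses, over 9 pairs each. The least similar to the other 11 libraries were 10 mg/L replicates 1 and 2, at 0.447 and 0.513, while 10 mg/L replicate 3 was at 0.600.

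On the first principal component of log2(CPM + 1) of the 137 clusters, which held 31.2% of their variance, 10 mg/L replicates 1 and 2 scored 18.6 and 16.96, and the other 10 libraries, 10 mg/L replicate 3 at 2.18 among them, scored from -9.09 to 2.73. The set holds Cluster-27942.66515, which entered it through 10 mg/L replicates 1 and 2, so their separation comes in part with the choice of clusters. The size of that part was not tested. On the second component, with 19.2%, the controls scored 6.32, 13.4 and 7.50, 2 mg/L replicate 1 scored 3.01, and 2 mg/L replicates 2 and 3 scored -11.3 and -11.8.

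**Figure D3:**
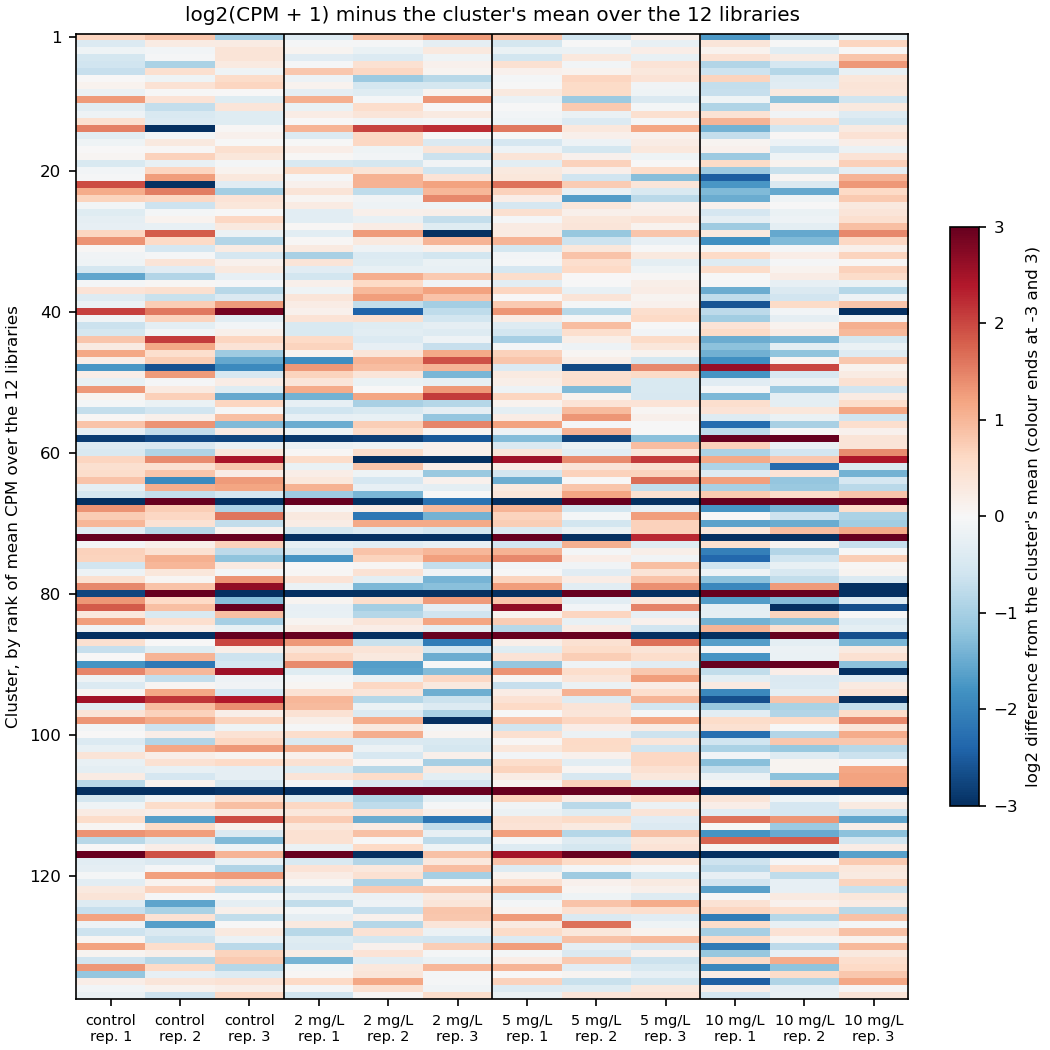
Difference of log2(CPM + 1) from each cluster's mean over the 12 libraries (colour, ends at -3 and 3), with the 137 clusters in rows by rank of mean CPM and the 12 libraries in columns. Pale rows predominate, the column of 10 mg/L replicate 1 is the bluest, being lowest for 42 clusters, and the dark rows are clusters nearly missing from some libraries.

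The lowest value of a cluster was most often found in 10 mg/L replicate 1, for 42 of the 137, followed by control replicate 2 with 18 and 10 mg/L replicate 2 with 13. The other libraries were lowest for 4 to 11 clusters. The highest value was most often in control replicate 3, for 23 clusters, and in 10 mg/L replicate 3, for 19. By group, the 10 mg/L libraries were lowest for 42, 13 and 9 clusters and the controls highest for 10, 16 and 23. Whether these values fell on single libraries more than on whole groups was not tested. With scaling by TMM, which sets the bulk of clusters level between libraries, 10 mg/L replicate 1 was lowest for 48 and 10 mg/L replicate 3 highest for 36.

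Replicates of a group differed by a within-group coefficient of variation of 38.0% (median over the 137 clusters, quartiles 28.4% and 56.6%). It was 28.6% in the 22 clusters of 5000 CPM or more, 37.2% at 2000 to 5000 CPM and 41.7% at 1000 to 2000 CPM. Clusters of 100 to 1000 CPM had 38.6%, and those of 10 to 100 CPM 43.8%. The class of 1000 to 2000 CPM was thus no steadier than the class below it, and the lowest spread was that of the 22 most abundant clusters.

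The highest library exceeded the lowest by a median of 4.94-fold, with quartiles of 3.11 and 9.96. The range was under 2-fold for 11 clusters, over 10-fold for 34 and over 100-fold for 13. Group means took up a median of 36.5% of a cluster's variance over the 12 libraries (log2 scale), against 36.0% for clusters of 100 to 1000 CPM, 34.9% for those of 10 to 100 CPM and 31.4% over the 57151 clusters tested. The set thus lay close to the classes next to it. Differences among libraries add to this share even where groups do not differ, and that part was not taken out.

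**Figure D4:**
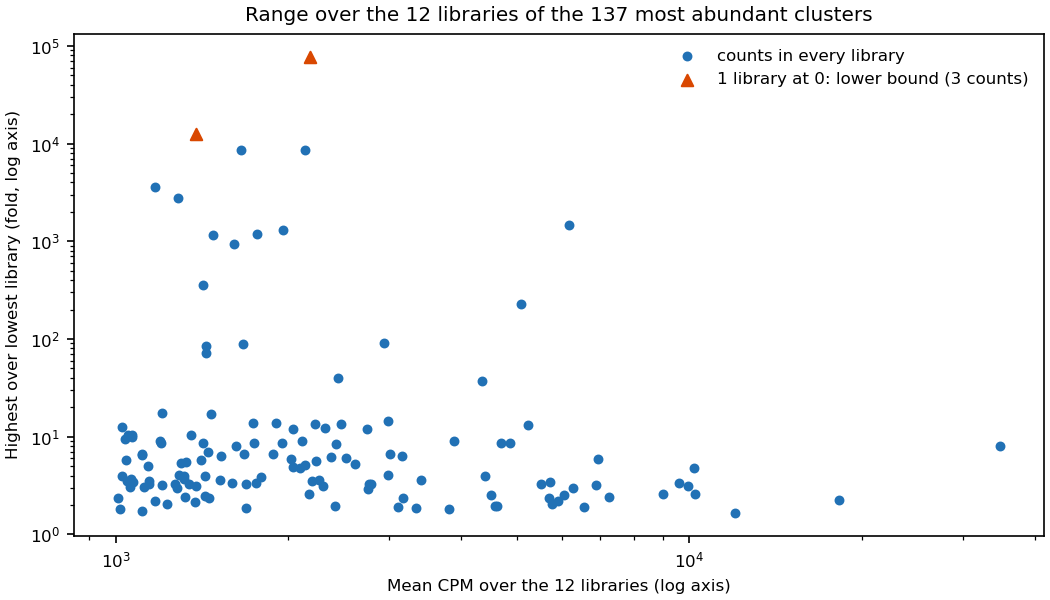
Fold between the highest and the lowest of the 12 libraries (vertical axis, log scale) against mean CPM (horizontal axis, log scale), 1 point per cluster. Most points lie between 2- and 10-fold, 13 lie above 100-fold, and the 2 triangles are clusters with a library at 0, drawn at a lower bound.

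Some of these clusters were abundant in most libraries and nearly missing from others. Of 1644 values (137 clusters in 12 libraries), 48 were under 1% of the cluster's own mean. They came from 12 clusters: 4 were at this level in 1 library each, and the others in 2 to 10 libraries. Every library had at least 1 such cluster, and 2 mg/L replicate 2 had the most, 7. In 2 of them all 3 controls were under 1% of the mean, in 3 all libraries at 2 mg/L, in 1 all at 5 mg/L and in 1 all at 10 mg/L.

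Cluster-27942.66515 was the widest. It had 14727 CPM in 10 mg/L replicate 1 and 11411 CPM in 10 mg/L replicate 2, where it ranked as high as 2, and 8.84 CPM in 10 mg/L replicate 3. The 5 mg/L libraries had 2.01, 0.0924 and 2.16 CPM. The controls had 0.0473, 0.146 and 0.103 CPM, and the 2 mg/L libraries 0 counts in replicate 1 and 0.0609 and 0.286 CPM in the others. The cluster was thus abundant in 2 libraries only, and its mean of 2179 CPM rests on them. Its highest library was at least 77738-fold above the one with 0 counts, taken as 3 counts in that library. Cluster-27942.66285 showed the opposite form: it had 0 counts in 2 mg/L replicate 3 and 889 to 2151 CPM in the other 11 libraries, at least 12532-fold at the widest.

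Each dose was tested against the controls in 1 fit over all 57151 clusters that passed the filter on low counts, all 137 among them. At 2 mg/L, 0 of the 137 were called (edgeR quasi-likelihood test, adjusted p under 0.05), with 0.00875% of all clusters called. At 5 mg/L it was 0 of 137 with 0% of all clusters, at 10 mg/L 0 of 137 with 0.007%, and over the 4 groups 0 of 137 with 0.0175%. With limma-voom 0 of the 137 were called in all 4 tests.

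DESeq2, which tested 136 of the 137, called 7 at 2 mg/L (3 higher and 4 lower), 1 at 5 mg/L (higher) and 15 at 10 mg/L (5 higher and 10 lower). Over the 4 groups it called 12. Of all clusters with an adjusted p it called 2.36%, 1.8%, 5.99% and 5.52% in the same order. Of the abundant clusters it called 5.15%, 0.735%, 11.03% and 8.82%. These calls include Cluster-27942.66275 (the 1 call at 5 mg/L), Cluster-27942.66515 and Cluster-27942.66139, which reached the abundance threshold only through the groups where they were high, so nothing is read from these shares.

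An unadjusted edgeR p under 0.05 was found at 2 mg/L for 4 clusters in the higher direction, where 2.59% of all clusters had one, and for 12 in the lower, where 3.91% did. At 5 mg/L there were 6 higher (2.82% of all clusters) and 3 lower (2.69%). At 10 mg/L there were 8 higher (5.63%) and 20 lower (5.72%). As shares of the 137, the lower counts at 2 and 10 mg/L were 8.76% and 14.6%, and the others 2.19% to 5.84%. Over the 4 groups 24 of the 137, or 17.5%, had such a p, against 8.15% of all clusters. Counts of reads are larger in these clusters, and the part of that precision in these shares was not tested.

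At 2 mg/L the lower count was 5 without 2 mg/L replicate 2, 5 without replicate 3 and 6 without control replicate 3. The count in either direction fell from 16 to 8, 8 and 10. The share of all clusters with such a p went from 6.50% to 5.21%, 4.71% and 4.79% in the same fits. At 5 mg/L the count in either direction fell from 9 to 3 without control replicate 2, to 4 without 5 mg/L replicate 3 and to 6 without 5 mg/L replicate 2. The share of all clusters went from 5.51% to 4.40%, 4.49% and 4.44% there. Each of these fits has fewer libraries in a group, and the part of that in the falls was not tested. The counts include clusters that entered through 1 group and are descriptions.

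The libraries of a dose lay wholly above the controls in CPM for 8 clusters at 2 mg/L (7.56% of all clusters tested), 10 clusters at 5 mg/L (6.57%) and 14 clusters at 10 mg/L (6.6%). They lay wholly below for 15 clusters at 2 mg/L (6.72%), 5 clusters at 5 mg/L (5.21%) and 21 clusters at 10 mg/L (9.32%). As shares of the 137 these were 5.84%, 7.30% and 10.2% above and 10.9%, 3.65% and 15.3% below, with all 12 libraries used. They include clusters that reached the abundance threshold only through the controls or only through a dose group. For such clusters the choice itself favours groups that do not overlap, so nothing is read from these shares against those of all clusters. On TMM-scaled CPM the counts wholly above were 4, 8 and 9 and those wholly below 17, 6 and 21, so the counts above at 2 and 10 mg/L depended on the scaling.

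The median log2 fold change of the 137 clusters was -0.11, -0.06 and -0.22 at the doses of 2, 5 and 10 mg/L, against -0.02, 0.04 and 0.00 over all clusters tested. At 2 mg/L the median was -0.01 without replicate 1, -0.15 without replicate 2, -0.28 without replicate 3 and -0.25 without control replicate 1. The 5 mg/L median turned to 0.02 when counts were scaled by library size alone and to 0.03 without control replicate 2. At 10 mg/L 85 of the 137 were below 0 and 52 above. Without 10 mg/L replicate 3 the median there was -0.75, against -0.07 over all clusters, with 107 below 0 and 30 above. In that fit 45 of the 137 had an unadjusted edgeR p under 0.05, 41 of them lower and 4 higher. The share of all clusters with such a p was also larger there, at 14.98% against 11.35% with all 12 libraries. Without 10 mg/L replicate 1 the median was -0.03, and without replicate 2 it was -0.06. It was -0.37 without control replicate 1, with 98 below 0 and 39 above, and -0.15 without control replicate 2. The size of the difference at 10 mg/L thus depended on single libraries of both groups.

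Among the 137, the clusters with the smallest unadjusted p over the 4 groups were taken as examples of each direction. The smallest p values chose all 4, so a p-value given for any of them is a description. In addition, 3 of the 4 reached the abundance threshold only through the groups where they were high, and no test is given for those 3. The first is Cluster-27942.66515, whose values are given above: it entered the set through 10 mg/L replicates 1 and 2.

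Cluster-27942.66275 had 3.10, 1.40 and 7.37 CPM in the controls and 2.03, 3793 and 1976 CPM at 2 mg/L. It had 3867, 3810 and 1945 CPM at 5 mg/L and 2.29, 2.36 and 6.26 CPM at 10 mg/L. It was therefore abundant in 5 libraries, all those at 5 mg/L and 2 of the 3 at 2 mg/L, and at a few CPM in the other 7, those at 10 mg/L included. These 5 libraries brought it over the abundance threshold.

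Cluster-27942.66002 had 6493, 4688 and 11563 CPM in the controls, 1720, 295 and 927 CPM at 2 mg/L, 3952, 882 and 2225 CPM at 5 mg/L and 913, 1472 and 127 CPM at 10 mg/L. Every treated library lay below every control. The log2 fold change at 10 mg/L was -3.37 with a standard error of 0.92 (edgeR unadjusted p = 0.00427, adjusted p = 0.320), and -2.93 without 10 mg/L replicate 3 (edgeR adjusted p = 0.196). DESeq2 called it at 10 mg/L (adjusted p = 0.00693), at 2 mg/L (adjusted p = 0.0262) and over the 4 groups (adjusted p = 0.0110). The cluster was picked by its small p in these same data, so these p-values give no independent support. At 2 and 5 mg/L the edgeR log2 fold change was -3.08 and -1.74, with standard errors of 0.91 and 0.86.

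Cluster-27942.66139 had 2418, 1748 and 5103 CPM in the controls, 676, 286 and 355 CPM at 2 mg/L and 529, 999 and 59.6 CPM at 10 mg/L. These groups did not overlap the controls, while the 5 mg/L libraries, at 2231, 1259 and 1548 CPM, did. Its mean over the treated libraries alone was under 1000 CPM. In both clusters 10 mg/L replicate 3 held the lowest value of all 12 libraries.

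**Figure D5:**
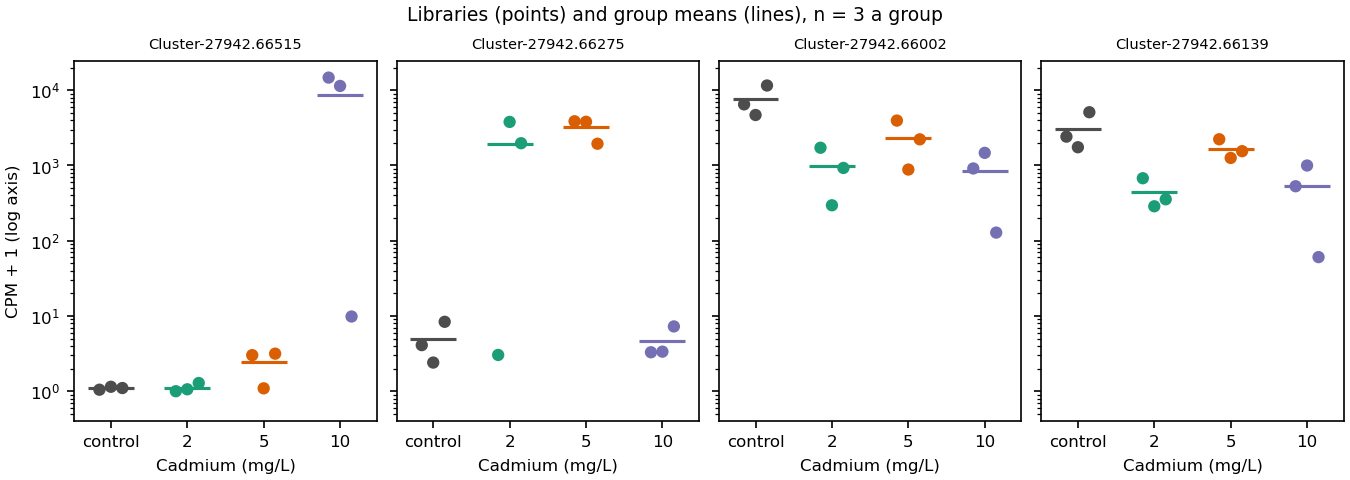
CPM + 1 (vertical axis, log scale) of 4 clusters in each library (points) and the mean of each group of 3 (lines), against cadmium in mg/L. Cluster-27942.66515 is high in 10 mg/L replicates 1 and 2 only, Cluster-27942.66275 in 5 libraries at 2 and 5 mg/L, and for Cluster-27942.66002 all treated libraries lie below the lowest control, 4688 CPM.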

How the data were processed

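RNA-seq libraries of hepatopancreas, 12 in 4 groups of 3, were grouped by their titles. Per the labels' protocols, RNA was extracted with Tri Reagent. The deposited tables give an estimated count per cluster, not normalized, and an FPKM value, per the file headers. How transcripts were assembled, aligned and counted is not given in the sources used here. The clusters and the rules for naming them were chosen with earlier results of these data known.

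Estimated counts were rounded and filtered with filterByExpr (minimum count 10, minimum total 15), scaled by TMM, and fitted with edgeR 4.0.16 (quasi-likelihood, 1 coefficient per group, all 12 libraries). P-values were Benjamini-Hochberg adjusted over all 57151 clusters kept. A standard error is the fold change divided by the root of its F statistic. CPM used all counts of a library. A count of 0 was set to 3 counts in that library for a lower bound on a fold, which covers counting error only. Implied lengths used libraries with at least 50 counts and an FPKM above 1. Alternatives were DESeq2 1.42.0, its size factors in edgeR, limma 3.58.1 (voom), library size alone, no low-count filter, the replicate number as a block, other units, other thresholds and each library left out. The tests were checked on simulated counts with the same spread for every cluster and none missing from single libraries, unlike these data. A limit on false calls was set there for edgeR alone, and DESeq2 made false calls above its nominal rate. R 4.3.3, Python 3.11.15, numpy 2.4.6 and pandas 2.3.3 were used.

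Named identifiers were the 8 with the highest mean, the 2 higher and the 2 lower in their larger change with the smallest p over the 4 groups, the 2 on each side of the threshold, and the 2 of smallest and of widest range.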

Additional observations from a re-analysis of the deposited data

How the results depend on the processing

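Against 0 as reported in each test, the number of the 137 clusters called was 7, 1, 15 and 12 by DESeq2 (2, 5 and 10 mg/L against the controls, then the 4 groups). With limma-voom, DESeq2 size factors, library size alone or no low-count filter it was 0 in all 4 tests, as it was with the replicate number as a block. Libraries with the same number deviated together with correlations of only -0.098 to 0.064 (18 pairs of libraries). Such correlations cannot settle whether the numbers pair the samples. With each library left out, calls ranged from 0 to 1 at 2 and 10 mg/L and over the 4 groups, and were 0 at 5 mg/L. The calls were of Cluster-27942.66275 without 2 mg/L replicate 1 and of Cluster-27942.66515 without 10 mg/L replicate 3, in each case the library of its group that lacks the cluster, and both entered the set through the libraries that hold it, so these calls support nothing. The set has 43 clusters if 1000 CPM is asked of every library and 210 on FPKM scaled to the same sum as CPM. On ranks by FPKM, 41.3 of the 137 were among the first 137 of a library on average. Scaling by TMM gave a median coefficient of variation of 42.7%. The difference in summed share was 0.538, -0.952 and -4.05 points on FPKM and 0.626, -0.831 and -3.64 points at a threshold of 2000 CPM (2, 5 and 10 mg/L), so that the 2 mg/L value changed sign. That value was -0.938 points at a threshold of 500 CPM and -2.997 without the most abundant cluster. With TMM scaling, added after the data were seen, 4 and 9 clusters lay wholly above the controls at 2 and 10 mg/L, against 8 and 14. The cause of these shifts was not tested.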
